A study of Mus musculus with 21 samples.

Results

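The 10 genes described here mark lateral plate and cardiac mesoderm, the tissue layer from which the heart, the body wall and the smooth muscle of vessels arise. They were taken by name from a table of 24458 genes, and they are Hand1, Hand2, Foxf1, Tbx20, Tbx3, Isl1, Pdgfra, Actc1, Acta2 and Mef2c. Of these, 9 were among the 12472 genes that passed the expression minimum for testing, a mean of 1 FPKM or more over all libraries. FPKM divides a gene's fragments by transcript length and by library size, so levels can be compared between genes. Mef2c, with a mean of 0.428 FPKM, was under the minimum, and its values are given without a main test.

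RNA was sequenced from mouse embryoid bodies, the aggregates in which embryonic stem cells differentiate, made by hanging drop from cells kept on gelatin in serum and LIF. One genotype was wild type and the other a knockout of Cxxc5, also called Rinf, the gene of a zinc finger protein that binds CpG in unmethylated DNA. Both were of the V6.5 line, a mixed 129/C57BL/6 strain, at passages 15 to 18. There were 2 independent stem cell lines per genotype and 3 times, days 0, 3 and 6 of differentiation, which gives 12 libraries in 6 groups of 2. The libraries are called here wild type 1 and 2 and knockout 1 and 2 after their replicate numbers in the labels, and the labels do not tie a number in one genotype to that number in the other. With 2 lines per genotype, differences that the lines had before the experiment are part of the spread that the p-values measure. The fit takes the 12 libraries as independent, has no term for the line and shares the spread of a gene across the days.

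In the embryo, Bmp signals pattern the early mesoderm, and transcription factors of the Hand, Gata, T-box and Nkx families then switch on heart genes in succession. Regulators such as Mesp1, Hand1 and Isl1 come first, and the contractile proteins of beating muscle come later. Several of the early genes also mark extraembryonic mesoderm, amnion and trophoblast, so no single one of them names a cell type.

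The targeted gene followed the labels. Cxxc5 lay between 25.1 and 52.3 FPKM in the 6 wild type libraries and between 5.05 and 11.9 FPKM in the 6 knockout libraries. Which exons the knockout removes is not stated in the labels. Estimated depth ran from 16.6 to 36.0 M reads per library, at which a 2 kb transcript of 1 FPKM has 33.2 to 72.0 reads. At day 6 the libraries did not form 2 tight groups. On the first principal component of all tested genes, which separates the days, wild type 1 stood at 30.0, wild type 2 at 54.5, knockout 1 at 58.4 and knockout 2 at 70.2, while the 4 libraries of day 3 lay between 0.102 and 4.57. Wild type 1 was thus nearest to day 3, and its values are given apart from those of wild type 2 throughout.

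Several of these genes moved together, and their promoters are shown for that reason. The RefSeq promoter table (build GRCm38.p6, the assembly also called mm10) held entries for 7 of the 10 genes, and none for Hand1, Foxf1 and Tbx3. The 250 bases before the start are shown for 3 genes that were higher in knockout at day 6 and for Actc1, which was lower. Capitals mark AGATAA, which zinc finger factors of the Gata family bind, AGGTGT, the motif of T-box factors, TGTTTA, that of forkhead factors, TATAAA, the core promoter box, and the CArG box of serum response factor, on either strand.
Hand2, chr8:57320733-57320982, plus strand: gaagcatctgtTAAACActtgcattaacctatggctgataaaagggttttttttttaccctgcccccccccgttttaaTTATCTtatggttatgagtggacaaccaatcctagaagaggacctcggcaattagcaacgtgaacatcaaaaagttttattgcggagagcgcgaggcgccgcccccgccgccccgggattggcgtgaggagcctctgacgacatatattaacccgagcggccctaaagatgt
Tbx20, chr9:24774304-24774553, minus strand: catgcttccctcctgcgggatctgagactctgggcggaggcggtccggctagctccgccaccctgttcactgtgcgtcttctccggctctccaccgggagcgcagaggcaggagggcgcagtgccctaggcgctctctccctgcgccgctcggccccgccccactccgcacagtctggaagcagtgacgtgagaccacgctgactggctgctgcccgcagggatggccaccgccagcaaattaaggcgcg
Isl1, chr13:116309689-116309938, minus strand: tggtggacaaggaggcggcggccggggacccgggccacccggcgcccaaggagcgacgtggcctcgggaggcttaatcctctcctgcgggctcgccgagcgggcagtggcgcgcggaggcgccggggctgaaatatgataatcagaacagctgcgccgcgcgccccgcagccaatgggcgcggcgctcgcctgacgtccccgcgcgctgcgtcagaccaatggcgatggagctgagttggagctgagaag
Actc1, chr2:114052876-114053125, minus strand: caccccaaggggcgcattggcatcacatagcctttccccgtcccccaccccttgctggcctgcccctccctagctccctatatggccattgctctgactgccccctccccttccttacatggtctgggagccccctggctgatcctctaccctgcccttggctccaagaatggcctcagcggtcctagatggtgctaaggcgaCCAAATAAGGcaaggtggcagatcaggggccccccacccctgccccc
The stretch before Hand2 held 1 Gata motif and 1 forkhead motif, the latter overlapping an E-box, CANNTG, the motif of the Hand family. The Actc1 promoter held 1 CArG box, beginning 47 bases before the start. None of the marked motifs was found in the windows of Tbx20 and Isl1. Among 27025 promoters of the same length, 10.25% held the Gata motif, 12.03% the forkhead motif, 11.99% the T-box motif, 12.97% the core promoter box, 66.04% an E-box and 1.40% a CArG box. The windows held 15 CpG pairs for Hand2, 22 for Tbx20 and 33 for Isl1, against a median of 6 with quartiles of 2 and 16 over all promoters. Pdgfra, also higher in knockout at day 6, held 4, as did Actc1 and Acta2. These counts describe the letters only.

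At day 6, 7 of the 9 tested genes were higher in knockout and 1, Actc1, was lower, by limma's test on log2(FPKM + 1) at a Benjamini-Hochberg adjusted p under 0.05. Of all tested genes, 17.9% were higher and 16.2% lower in that comparison. The median difference of the tested members was 2.35 on the log2 scale, against 0.02 over all tested genes. Of the 9, 7 passed the expression minimum only through the day 6 libraries, so this count describes them and is no independent support. With no expression minimum, 5 of the 10 genes were higher and 1 was lower. When only the 4 libraries of day 6 were fitted, 0 of the 9 were called, with a limma adjusted p of 0.256 for Hand1, 0.187 for Tbx3 and 0.141 for Actc1, and 20 of all tested genes passed. In that fit the SE was 1.64 for Hand1, 1.44 for Foxf1 and 0.61 for Isl1, against 1.08, 0.95 and 0.41 in the main fit. The main fit shares its spread with days 0 and 3, where these genes varied little. Its SE, intervals and p-values at day 6 are thus too small for these genes. In bulk RNA, more cells of a type and more RNA per cell cannot be told apart.

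**Figure D1:**
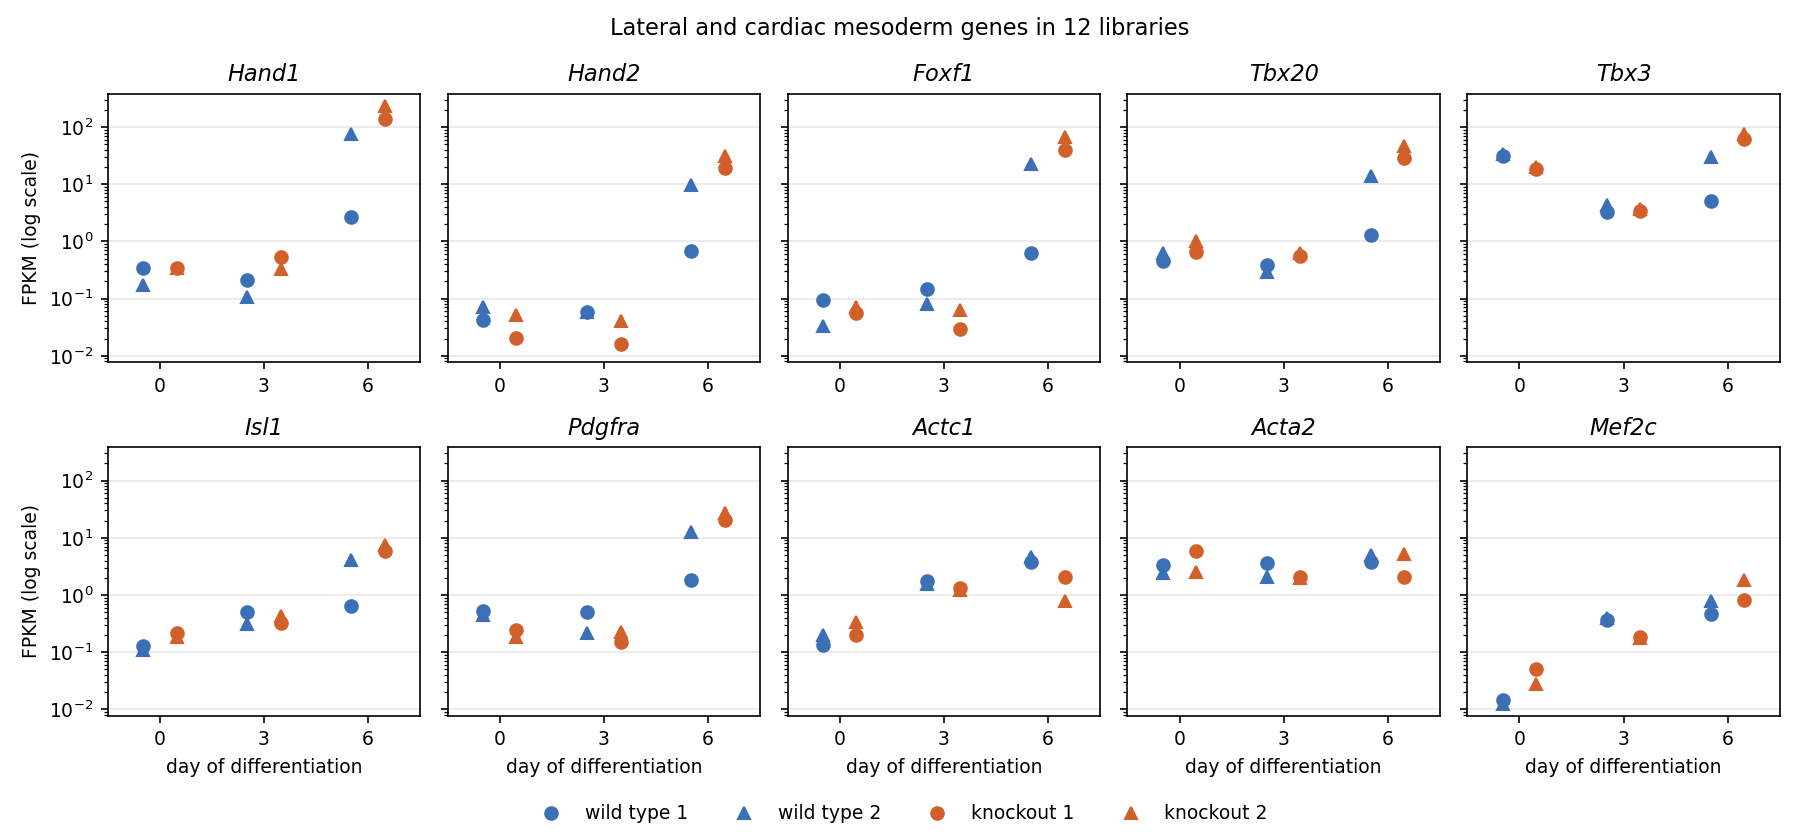
FPKM of the 10 genes (log scale) by day, 1 panel per gene, with wild type in blue, knockout in orange, circles for replicate 1 and triangles for replicate 2. For Hand1, Hand2, Foxf1, Tbx20, Isl1 and Pdgfra the 8 libraries of days 0 and 3 all lie at or under 0.998 FPKM, and at day 6 wild type 1 lies far below the other 3.

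Hand1, on chr11:57828713-57832147, encodes a basic helix-loop-helix factor of the heart tube, lateral mesoderm and trophoblast giant cells. It lay between 0.106 and 0.541 FPKM in the 8 libraries of days 0 and 3. At day 6 it stood at 2.67 in wild type 1, 74.6 in wild type 2, 137 in knockout 1 and 236 in knockout 2. Both knockout libraries were above both wild type libraries, but the wild type libraries were 27.9-fold apart, and the knockout mean was 2.50-fold the value of wild type 2. The log2 difference was 3.44 (SE 1.08, limma adjusted p 0.0379, 95% interval 0.988 to 5.89). Hand1 was the most abundant of the 10 genes in wild type 2 and in both knockout libraries at day 6.

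Hand2, on chr8:57320983-57324517, is its close relative in the second heart field and right ventricle. At days 0 and 3 it rested on 1.0 to 4.2 reads per library. At day 6 it read 0.681 and 9.74 FPKM in wild type 1 and 2 and 19.5 and 30.7 in knockout 1 and 2, which correspond to 42.2, 628, 1272 and 2031 reads. The order was that of Hand1, with a 14.3-fold gap between the wild type libraries and a knockout mean 2.58-fold that of wild type 2. The log2 difference was 2.58 (SE 0.67, limma adjusted p 0.0194).

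Foxf1, on chr8:121084386-121088154, encodes a forkhead factor of the splanchnic and extraembryonic mesoderm that responds to hedgehog and Bmp signals. It rested on 2.0 to 10.9 reads per library at days 0 and 3. At day 6 it was 0.639 FPKM in wild type 1, 22.3 in wild type 2, 40.0 in knockout 1 and 66.8 in knockout 2. The gap between the wild type libraries, 35.0-fold, was the widest of the 10 genes. The log2 difference was 3.09 (SE 0.95, limma adjusted p 0.0352).

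Tbx20 and Tbx3 encode T-box factors. The former acts in the heart chambers, and the latter is a transcriptional repressor active in the conduction system that also helps to sustain stem cells. Tbx20, on chr9:24720812-24774303, lay between 0.294 and 0.998 FPKM at days 0 and 3, and at day 6 it read 1.27, 13.7, 29.2 and 46.1 in wild type 1, wild type 2, knockout 1 and knockout 2. Its log2 difference at day 6 was 2.71 (SE 0.68, limma adjusted p 0.0170).

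Tbx3, on chr5:119670534-119684724, had the other time course. It was already high in the undifferentiated cells of day 0, at 31.2 and 34.1 FPKM in wild type and 18.6 and 19.8 in knockout. At day 3 it had dropped to between 3.28 and 4.35 in all 4 libraries. At day 6 it read 5.13 and 29.3 in wild type 1 and 2 and 62.6 and 75.2 in knockout 1 and 2. The knockout libraries were thus below the wild type ones at day 0, overlapped with them at day 3 and were above them at day 6. At day 6 the log2 difference was 2.35 (SE 0.57, limma adjusted p 0.0149). At day 0 it was -0.73 (SE 0.57, limma adjusted p 0.607), and with the day 6 libraries left out of the fit, where the SE was 0.11, the adjusted p was 0.0369. The genotype difference at day 6 minus that at day 0 was 3.08 (SE 0.81, limma adjusted p 0.0429), a contrast added after the values were seen.

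Isl1, on chr13:116298270-116309688, encodes the LIM homeodomain factor of the second heart field, and also of motor neurons. It lay between 0.109 and 0.494 FPKM before day 6, and then at 0.641 and 4.01 in wild type 1 and 2 and at 5.78 and 7.53 in knockout 1 and 2. Its knockout mean was 1.66-fold the value of wild type 2, the smallest such ratio among the genes that rose, and its log2 difference was 1.41 (SE 0.41, limma adjusted p 0.0308). Pdgfra, on chr5:75151322-75198206, encodes a receptor tyrosine kinase used to sort early cardiac mesoderm, and is also present in primitive endoderm. It lay between 0.149 and 0.521 FPKM before day 6, and then at 1.82 and 12.4 in wild type and at 20.7 and 26.9 in knockout. The log2 difference was 2.00 (SE 0.56, limma adjusted p 0.0263). At day 0 the knockout values of Pdgfra, 0.248 and 0.184, were below the wild type values, 0.521 and 0.447, without passing the test.

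**Figure D2:**
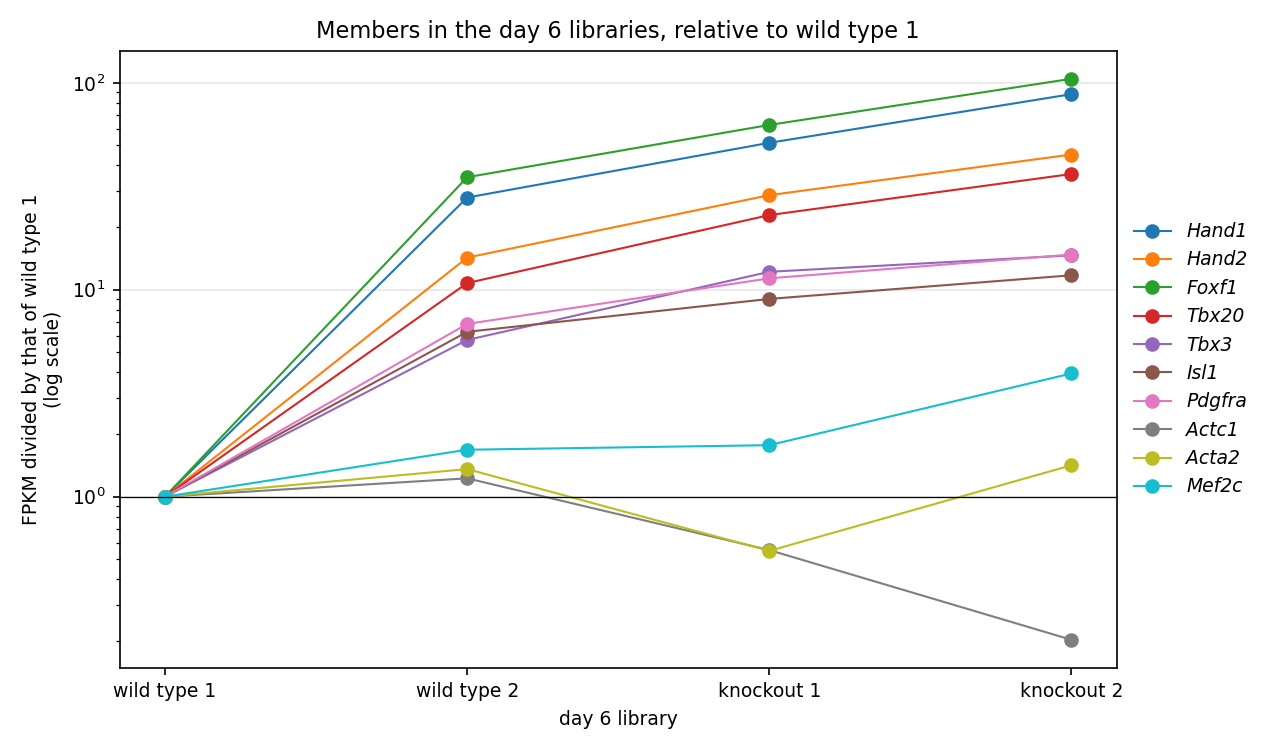
FPKM in each day 6 library divided by that of wild type 1 (log scale), 1 line per gene across the 4 libraries. From Foxf1 at 35.0 to Tbx3 at 5.72, 7 genes are far higher in wild type 2 than in wild type 1 and higher again in both knockout libraries, while Actc1 and Acta2 stay near 1 in wild type 2.

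The other 3 genes belong to the muscle programme, and none of them showed the wide gap between the wild type libraries. Actc1, on chr2:114047282-114052875, encodes cardiac alpha actin, the thin filament actin of embryonic heart and skeletal muscle. It read 0.135 and 0.202 FPKM in wild type and 0.198 and 0.339 in knockout at day 0, and 1.78 and 1.53 in wild type against 1.30 and 1.23 in knockout at day 3. At day 6 it read 3.80 and 4.66 in wild type and 2.10 and 0.773 in knockout. The wild type libraries were 1.23-fold apart, and both knockout libraries were lower. The log2 difference at day 6 was -1.15 (SE 0.23, limma adjusted p 0.00729).

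Acta2, on chr19:34240336-34255585, encodes the alpha actin of smooth muscle and myofibroblasts. It lay between 1.95 and 5.90 FPKM before day 6, and at day 6 it read 3.71 and 5.04 in wild type and 2.03 and 5.26 in knockout, so the groups overlapped. The log2 difference was -0.29 (SE 0.40, 95% interval -1.20 to 0.61, limma adjusted p 0.588). The actins have near-identical coding sequences, and how reads shared between them were counted is not stated, so values of Actc1 and Acta2 are less certain than the others. Mef2c, on chr13:83504017-83667079, encodes a MADS-box factor that activates muscle genes. It read 0.0147 and 0.0126 FPKM in wild type and 0.0499 and 0.0277 in knockout at day 0, and 0.367 and 0.400 in wild type against 0.188 and 0.178 in knockout at day 3. At day 6 it read 0.464 and 0.782 in wild type and 0.823 and 1.83 in knockout. With no expression minimum, the day 6 difference of Mef2c was 0.49 on the log2 scale (SE 0.18, limma adjusted p 0.0888 over 20650 genes).

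The size of the difference depended on which wild type library of day 6 was used. In 7 of the 9 tested genes, the same 7 that were called higher, wild type 2 was at least 5-fold above wild type 1, a bound chosen after the values were seen. This held for 0.504% of the 12303 tested genes that were above 0 in both. The gap between the wild type libraries was already known when these values were compared. All of the 7 but Tbx3 passed the expression minimum only through the day 6 libraries. The shares and ratios here therefore describe the gap and are no independent support. The median ratio of wild type 2 to wild type 1 was 6.84 over the tested members and 0.995 over all tested genes. Those 7 genes also stood in the order wild type 1, wild type 2, knockout 1, knockout 2 from low to high, as did 17.4% of all tested genes. Against wild type 2 alone, the knockout mean was 2.35-fold higher at the median of the tested members and 1.03-fold over all tested genes.

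Leaving out 1 wild type library of day 6 moved the estimates most. Without wild type 1, the log2 difference fell to 1.26 for Hand1 (SE 0.28, limma adjusted p 0.0207), 1.17 for Foxf1 (SE 0.25, 0.0185), 1.20 for Tbx3 (SE 0.15, 0.00351) and 0.60 for Isl1 (SE 0.16, 0.0385). Without wild type 2 it was 5.62 for Hand1 and 5.01 for Foxf1. In both fits the estimates of the same genes stayed above 0 and that of Actc1 below 0. Either omission also takes the gap between the wild type libraries out of the spread, so the kept calls are no sign of stability. Without knockout 2 of day 6 the gap stayed in the fit. The estimates were then 3.05 for Hand1 (SE 1.41, limma adjusted p 0.179), 2.73 for Foxf1 and 2.22 for Tbx3 (SE 0.76, 0.0870), and none of the 7 genes was called. Without knockout 1 of day 6 the estimates were 3.83 for Hand1, 3.45 for Foxf1 and 2.90 for Hand2. In such fits the lone library of a group is assumed to vary like the others. Counts of calls in them, here and for the gene lists below, are given without the share of all tested genes. That share also changes from fit to fit, so these counts are not set against all genes.

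Hand1, Foxf1 and Isl1 were the closest to the threshold. With GC content and length trends removed the limma adjusted p was 0.0622 for Hand1 and 0.0543 for Foxf1, and with any 1 library of days 0 or 3 left out those of the pair lay between 0.0547 and 0.0630. For Isl1 it was 0.0514 with a pseudocount of 0.1, and 0.0515 without any 1 knockout library of days 0 or 3. Actc1 was lower in each of the 4 fits without 1 day 6 library, by between 0.75 and 1.56 on the log2 scale.

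**Figure D3:**
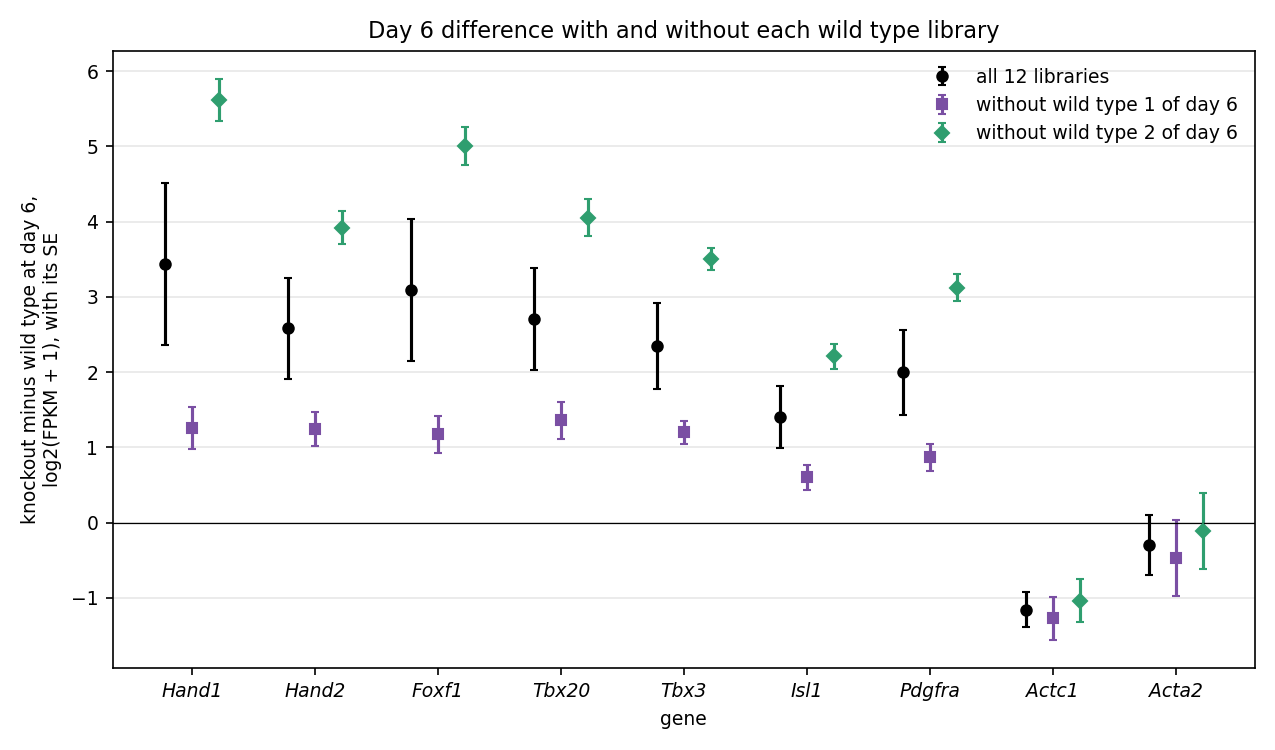
Knockout minus wild type at day 6 on the log2(FPKM + 1) scale for the 9 tested genes, with bars of 1 SE from limma, fitted on all 12 libraries (black), without wild type 1 of day 6 (purple) and without wild type 2 of day 6 (green). The 7 genes above 0 are above 0 in each fit, Hand1 at 3.44, 1.26 and 5.62, and Actc1 is below 0 in each.

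Before day 6 the main fit did not tell the genotypes apart at these genes. At day 0, 0 of the 9 tested genes were called, with 0.216% of all tested genes called higher and 0.152% lower, and none had an unadjusted p under 0.05. At day 3, 0 of 9 were called, against 1.12% higher and 0.0722% lower among all genes, again with none under an unadjusted p of 0.05. The spread in this fit is shared across days, and for the 7 genes the wild type libraries of day 6 were the farthest apart of any group. With the day 6 libraries left out, Tbx3 at day 0 was the only member called on either day, and Hand1 at day 3, at 0.208 and 0.106 FPKM in wild type and 0.541 and 0.327 in knockout, had an adjusted p of 0.153.

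From day 0 to day 3, 2 of the 9 tested genes were called in each genotype. Actc1 rose from day 0 to day 3 in wild type by 1.18 (SE 0.23, limma adjusted p 0.00251) and in knockout by 0.84 (SE 0.23, 0.0147) on the log2 scale. Tbx3 fell by 2.81 in wild type (SE 0.57, limma adjusted p 0.00300) and by 2.16 in knockout (SE 0.57, 0.0120). Of all tested genes, 25.5% rose and 30.2% fell over this interval in wild type, and 24.6% rose and 28% fell in knockout.

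From day 3 to day 6, 5 of the 9 rose in wild type and 7 of the 9 in knockout. In wild type these were Hand1 (3.85, SE 1.08, limma adjusted p 0.0247), Hand2, Tbx20, Pdgfra and Actc1, with 17.4% of all tested genes rising and 18.4% falling. Without wild type 1 of day 6 the wild type rise was 6.03 for Hand1 and 3.34 for Hand2 on the log2 scale. Without wild type 2 of day 6 it was 1.67 and 0.67. In knockout the 7 that rose were Hand1 (6.98, SE 1.08, limma adjusted p 0.000822), Foxf1 (5.66, 0.00122), Hand2 (4.63), Tbx20 (4.57), Pdgfra (4.38), Tbx3 (3.95) and Isl1 (2.47). Of all tested genes, 29.2% rose and 29.9% fell in knockout. Actc1 rose in wild type, by 0.98 (SE 0.23, limma adjusted p 0.0139), and its change in knockout was 0.05 (SE 0.23, adjusted p 0.878).

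Whether the genotypes differed in that change was tested by the interaction. From day 3 to day 6, 0 of the 9 members passed, against 1.3% of all tested genes in the positive and 3.21% in the negative direction. At an unadjusted p under 0.05 there were 6 positive and 1 negative, beside 3143 of all 12472 tested genes in either direction, and the limma adjusted p of these 7 ran from 0.115 for Tbx3 to 0.185 for Foxf1. The estimate for Hand1 was 3.13 (SE 1.52, adjusted p 0.234). From day 0 to day 6, Tbx3 was positive and Actc1 negative (-1.27, SE 0.33, limma adjusted p 0.0416), against 5.28% positive and 6.9% negative among all tested genes. For Hand1 the day 3 to day 6 estimate was 0.95 without wild type 1 of day 6 and 5.31 without wild type 2. For Foxf1 it was 1.26 and 5.10, so these estimates also turn on 1 library.

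Among themselves the regulators followed closely similar courses. As the root mean square difference of log2(FPKM + 1) over the 12 libraries after each gene's mean was removed, Hand2 and Tbx20 were 0.16 apart, Hand2 and Pdgfra 0.23, and Hand1 and Foxf1 0.66, while Actc1 and Acta2 were 0.84 apart. By the same measure, over all tested genes outside the 10, those nearest to Hand1 were Prdm6 (0.67), Mesp1 (0.76), Nrp1 (0.78), Msx2 (0.82), Msx1os (0.85) and Pmp22 (0.93). The measure takes in all 3 days, so a shared difference between day 6 and the earlier days enters it.

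Other genes of early heart formation were examined in lists made with results of these data known. Of 16 cardiac progenitor regulators 10 were tested, and at day 6 5 were higher in knockout and 1 was lower, with a median log2 difference of 1.16. Mesp1, a marker of the earliest cardiac mesoderm, read 1.86, 23.7, 50.5 and 38.2 FPKM in wild type 1, wild type 2, knockout 1 and knockout 2 (2.42, SE 0.76, limma adjusted p 0.0393). Gata4, a zinc finger partner of Tbx20 and Nkx2-5, read 5.95, 25.7, 36.4 and 51.2 (1.70, SE 0.50, limma adjusted p 0.0317). Tbx2, Gata6 and Smarcd3 were also higher, and Hopx, a homeodomain-only factor, was lower (-0.79, SE 0.18, limma adjusted p 0.0114). Nkx2-5 was under the expression minimum, at 0.471, 0.831, 2.44 and 3.28 FPKM, with both knockout libraries above both wild type ones. Without wild type 1 of day 6, 3 of the 10 were higher and 0 lower, and without knockout 2 there was 1 in each direction.

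A list of 17 other sarcomere and heart muscle genes, which leaves out Actc1, had 6 genes past the minimum. Of these, 0 were called at day 6, with a median difference of 0.08, and 2 were higher without wild type 2 of day 6, with a median of 0.40. Tnnt2, cardiac troponin T, was at 0.153, 0.692, 1.31 and 2.62 FPKM in the 4 day 6 libraries, and Myh6, the atrial myosin heavy chain, lay between 0.102 and 0.212. Both genes were under the expression minimum and were not tested. Of 10 tested smooth muscle genes, Tpm1 and Tpm2 were higher (0.63 and 0.43), and Tagln, at 20.7, 20.7, 19.5 and 11.6 FPKM, was not called (-0.43, SE 0.28, limma adjusted p 0.255). Of these 10, 0 were called without wild type 1 of day 6.

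Among 12 tested genes of lateral plate and extraembryonic mesoderm, 8 were higher in knockout at day 6 and 0 lower, with a median of 1.53. They were Bmp4, Bmp2, Bmp5, Msx1, Msx2, Snai2, Twist1 and Prrx2, ligands and transcription factors of that tissue. Without wild type 1 of day 6 there were 3, and without knockout 2 there was 1. The Bmp pathway list shares Bmp4 and Bmp2 with the list before. Of 15 tested genes of the Bmp pathway, 6 were higher, the ligands Bmp4, Bmp2 and Bmp7 and the target genes Id3, Smad6 and Smad7, and 1, the transducer Smad5, was lower. With wild type 1 of day 6 left out, 2 were higher and 1 lower. Bmp4 showed the same order of libraries as Hand1, with 3.10, 16.7, 38.6 and 60.0 FPKM (2.53, SE 0.55, limma adjusted p 0.00965). At day 0 Bmp4 was between 25.7 and 34.3 FPKM in all 4 libraries. Of 4 tested genes of paraxial and intermediate mesoderm 0 were called.

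Markers of other tissues moved at day 6 as well, and their part in the values of the 10 genes was not tested. The summed level of 14 trophoblast and amnion genes was 195 and 462 FPKM in wild type 1 and 2 and 729 and 1013 in knockout 1 and 2, and 7 of 10 tested were higher, among them Cdx2 (0.944, 4.44, 10.2 and 19.0 FPKM). Prl3d1, the placental lactogen of trophoblast giant cells, was at 0 in both wild type and at 0.0978 and 0.0960 in the knockout libraries. Extraembryonic endoderm genes summed to 197 and 284 in wild type and 318 and 470 in knockout, with 6 of 12 higher, and Afp was under 0.1 FPKM in all 12 libraries. Gata4 and Gata6 are among those 6 and were also counted with the cardiac progenitor regulators. Neural genes summed to 288 and 151 in wild type and 128 and 60.8 in knockout, with 8 of 9 lower and 0 higher. When wild type 1 of day 6 was left out, 6 trophoblast and amnion genes and 1 endoderm gene were higher and 2 neural genes were lower. Blood and endothelial genes summed to 21.9 and 73.0 in wild type and 79.6 and 128 in knockout, with 1 of 9 tested, Cdh5, called higher, and 6 without wild type 2 of day 6. Fibroblast genes summed to 10.7 and 16.3 in wild type and 18.7 and 33.0 in knockout, with 2 of 6 higher, and pluripotency genes to 724 and 525 in wild type and 615 and 347 in knockout, with Tbx3 higher and Sox2 lower of 12.

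**Figure D4:**
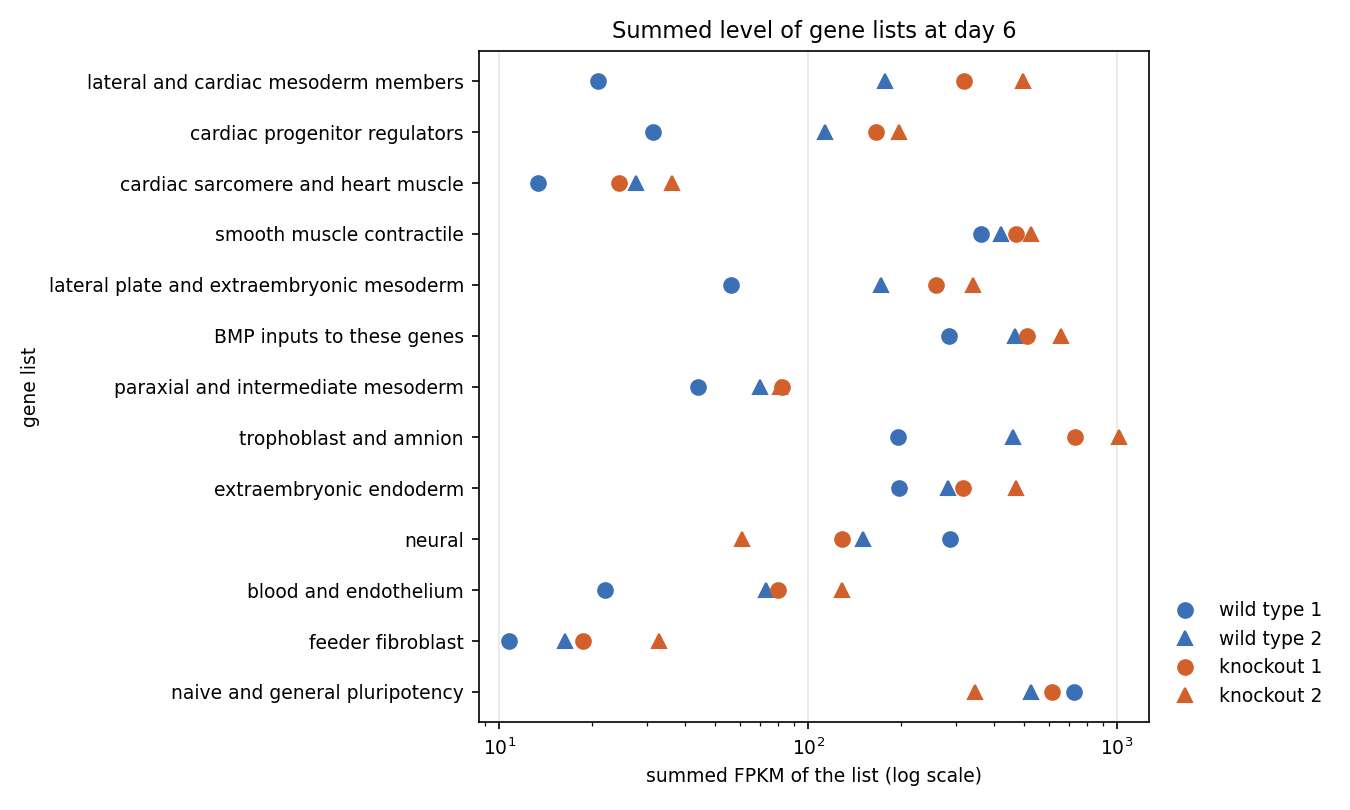
Summed FPKM of the 10 genes and of 12 comparison lists (log scale) in the 4 day 6 libraries, wild type in blue and knockout in orange, circles for replicate 1 and triangles for replicate 2. The 10 genes sum to 20.8 in wild type 1, 177 in wild type 2, 320 in knockout 1 and 497 in knockout 2, and the neural list stands in the opposite order.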

How the data were processed

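The values used are FPKM for 24550 rows, 92 of them ERCC spike-ins listed at 0 in every library, as deposited by the authors in 1 table of 12 columns. Reads of total RNA were, per the labels' protocols, trimmed with Trim Galore 0.4.1 and mapped with TopHat2 2.0.13 to mm10. Per the submitters' processing notes, Cufflinks 2.2.1, Cuffdiff and HTSeq 0.6.1 were also used, with no role stated. For annotation and strand the sources used here say nothing. Library medians differed by 0.00690 on the log2 scale, so no further scaling was applied. From the spacing of low FPKM values over 3146 single-transcript genes, depth was estimated at 16.6 to 36.0 M reads.

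The fit used limma 3.58.1 (R 4.3.3) and log2(FPKM + 1), that is a pseudocount of 1, with one mean per group over all 12 libraries, a variance trend and Benjamini-Hochberg adjustment over the 12472 genes whose mean FPKM reached 1. Fold changes on this scale understate changes of low genes. Positive differences mean higher in knockout or at the later day. With 2 libraries against 2, an exact permutation test cannot go below 0.333, so none was used. The fit was also run on simulated data, with the spread taken from wild type at day 0 and knockout at day 3. The gap between the wild type libraries of day 6 is absent there, so that run cannot speak for the day 6 calls.

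The members, lists and comparisons were chosen with earlier results of these data known. Genes named beyond the members were those called in a list, 8 genes fixed whatever their value (Gata4, Gata6, Nkx2-5, Tnnt2, Bmp4, Mesp1, Tagln and Cdx2), defining markers named for being near 0, and the 6 nearest to Hand1. A second table, of undifferentiated cells, held 6 sets of values whose names could not be matched to the labelled samples, and it was not used. Alternatives were other pseudocounts, filters, scalings, library weights, a replicate block, removal of GC and length trends, and leaving out each library. Python 3.11.15 and matplotlib 3.10.9 drew the figures.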

Additional observations from a re-analysis of the deposited data

Results flagged for a closer look

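For 5 of the genes the knockout and wild type libraries did not overlap in either of 2 days, and in opposite directions. How many of all tested genes show such a pattern was not counted, so the 5 are listed as a description only. The differences below are the genotype difference at day 6 minus that at the earlier day, on the log2 scale with limma's SE. For Tbx3, lower in knockout at day 0 and higher at day 6, it was 3.08 (SE 0.81, limma adjusted p 0.0429). Pdgfra had the same pattern, at 2.29 (SE 0.80, limma adjusted p 0.0905). Hand2 and Foxf1 were lower in knockout at day 3 and higher at day 6, at 2.63 (SE 0.95, limma adjusted p 0.139) and 3.18 (SE 1.34, limma adjusted p 0.185). Their day 3 values rest on at most 4.2 and 10.9 reads per library. Mef2c, under the expression minimum, was also lower at day 3 and higher at day 6, at 0.72 in the fit with no minimum (SE 0.25, limma adjusted p 0.173).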

How the results depend on the processing

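In the main fit 26 differences of single members were called, with 522 values under alternatives, of which 411 kept direction and call, 111 kept the direction without passing, and 0 reversed. Many alternatives leave the estimate itself unchanged. These are library weights, a replicate block, no filter on low values, and leaving out libraries of groups outside the comparison. No reversal could occur in those, so the 0 is no sign of stability. The number of members called at day 6 was 8, and 0 when only the 4 libraries of that day were fitted, where 20 of all tested genes passed against 4249. Library weights left 8 members and 2011 genes. Over all alternatives the genes called ran from 20 to 4868 at day 6, from 8 to 360 at day 0 (46 in the fit reported), from 5 to 1397 at day 3 (149), from 67 to 2159 for the day 3 to day 6 interaction (562) and from 307 to 3094 for the other (1518). At day 0 the count was 0, and 1 (Tbx3) without the day 6 libraries. From day 3 to day 6 in wild type it was 5, and 3 with no filter on low values and with quantile normalization. For the day 0 to day 6 interaction, added after seeing the data, it was 2, and 1 with a pseudocount of 0.1, with library weights and with GC and length trends removed, and 0 with no filter. Leaving out 1 library gave 1 to 8 members at day 6, 0 to 1 at day 0, 0 to 0 at day 3, 2 to 2 from day 0 to day 3 in wild type, 0 to 2 in knockout, 0 to 8 from day 3 to day 6 in wild type, 7 to 8 in knockout, and 0 to 7 for each interaction.

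The difference of replicate 2 from replicate 1 was correlated between groups over all tested genes. For wild type and knockout at day 6 the correlation was 0.24, and for all other pairs of groups it lay between -0.08 and 0.08. At day 6 the 7 members called higher had replicate 2 above replicate 1 in both genotypes. This follows from their order of libraries given above, which 17.4% of all tested genes shared, and adds nothing to it. With a replicate block 8 members were called at day 6 (7 higher, 1 lower), and 1 for the day 0 to day 6 interaction. The comparison of undifferentiated knockout and wild type cells was not run, since its values could not be matched to samples. Depth limits Hand2 and Foxf1 before day 6, where a few reads make each value, and 2 libraries per group limit all comparisons.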
